A study of Mus musculus with 8 samples.

Results

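F4/80-high tumour-associated macrophages (F4/80-high TAM) were compared with Ly6C-high monocytes of the spleen (spleen monocytes). The comparison comprised 4 of the 8 arrays of the study, chosen by their sample titles, and the 24692 of 35556 probe sets that carry a gene symbol, chosen without use of measured values. These probe sets represented 21442 genes. The 2 F4/80-high TAM arrays, numbered replicates 1 and 2, were both labelled male and came from orthotopic colorectal tumours of C57BL/6 mice of genotype Cx3cr1gfp/+. The 2 spleen monocyte arrays, labelled male (replicate 1) and mixed sex (replicate 2), came from spleens of mice of the same strain and genotype, in which a green fluorescent reporter is inserted into the gene for the fractalkine receptor. No treatment was given to either group, and ages, the origin of the tumour cells and whether the spleen donors carried tumours are not given in the labels. Cell type, organ and tumour differ together between the groups and cannot be told apart. The other arrays, Ly6C-high tumour cells (Ly6C-high TAM) and steady-state colon macrophages of the same genotype with 2 arrays each, shared the estimate of the spread and are quoted for levels. The labels do not say whether the 2 tumour replicates came from separate animals, so the p-values measure only the spread between these samples.

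Ly6C-high monocytes are bone marrow-derived blood cells that leave the marrow through the chemokine receptor CCR2 and are held in reserve in the spleen. In inflamed tissues and tumours they enter, lose Ly6C and become macrophages, which take up dead cells and matrix, make complement and chemokines and adjust to local oxygen and nutrients. Monocytes themselves divide little and carry genes for adhesion to vessel walls. Spleen also holds patrolling monocytes, which crawl along endothelium, and red pulp macrophages, which recycle iron.

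Values are RMA-normalised log2 signals, on which a difference of 1 is a 2-fold change. A gene was called higher or lower at a limma adjusted p of 0.05 or less (Benjamini-Hochberg over 21442 genes) and a fold of 2 or more. Every p-value below is a limma adjusted p, differences are F4/80-high TAM minus spleen monocytes with the standard error of the fit (n = 2 arrays per group), and paired values are replicates 1 and 2 in that order. In sorted bulk samples, fewer cells of a type and less RNA per cell cannot be told apart. Replicates differed 2-fold or more at 768 genes in F4/80-high TAM, of which 613 were higher in replicate 2, and at 76 genes in spleen monocytes, of which 72 were higher in replicate 1. The mean signal of 25 epithelial and tumour cell markers was 6.64 and 8.26 in F4/80-high TAM, against 6.86 and 6.29 in spleen monocytes, and that of 24 fibroblast markers was 7.18 and 7.72, against 6.67 and 6.65. Xist, transcribed from the inactive X chromosome, read 4.70 and 4.64 in F4/80-high TAM, against 4.95 and 10.04 in spleen monocytes, with the high value in the array labelled mixed sex.

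**Figure D1:**
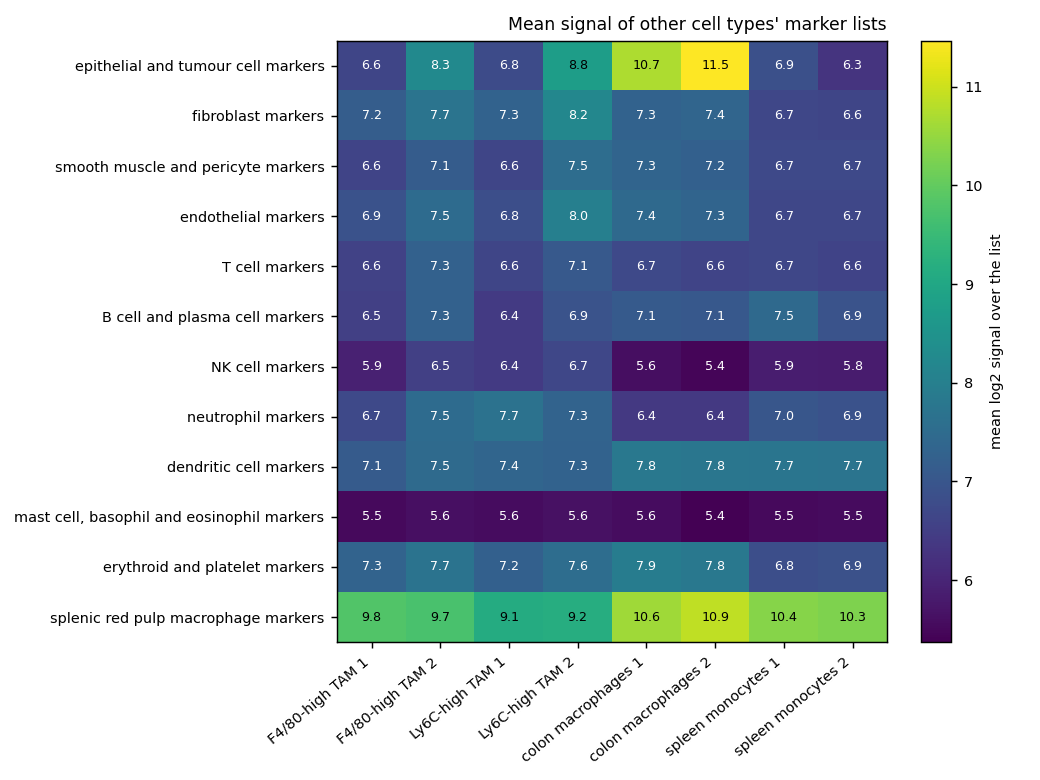
Mean log2 signal of 12 marker lists of other cell types (rows) in each of the 8 arrays (columns, population and replicate), with the mean printed in each cell. In F4/80-high TAM the epithelial and tumour cell list read 8.26 in replicate 2, above 6.64 in replicate 1 and above both spleen monocyte arrays, and the red pulp macrophage list was the brightest list in all 4 arrays of the comparison. Colon macrophages had the brightest epithelial signal, with 10.7 and 11.5.

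Of 21442 genes, 981 were higher in F4/80-high TAM (4.58%) and 509 were lower (2.37%). The list counts below are to be read beside these shares. The median difference over all genes was -0.02. The F4/80-high TAM arrays lay entirely above the monocyte arrays at 29.6% of genes and entirely below at 31.1%. A change of 8-fold or more was called for 162 genes higher and 51 lower, and of 16-fold or more for 56 and 14. Median centring of the arrays gave 790 higher and 863 lower, so the balance between the directions depends on the scaling, and it moved the median of all genes to -0.25. Without F4/80-high TAM replicate 2, the array with the epithelial signal, 610 were higher and 336 lower. The counts were 452 and 218 without spleen monocyte replicate 1, and 394 and 207 without spleen monocyte replicate 2.

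**Figure D2:**
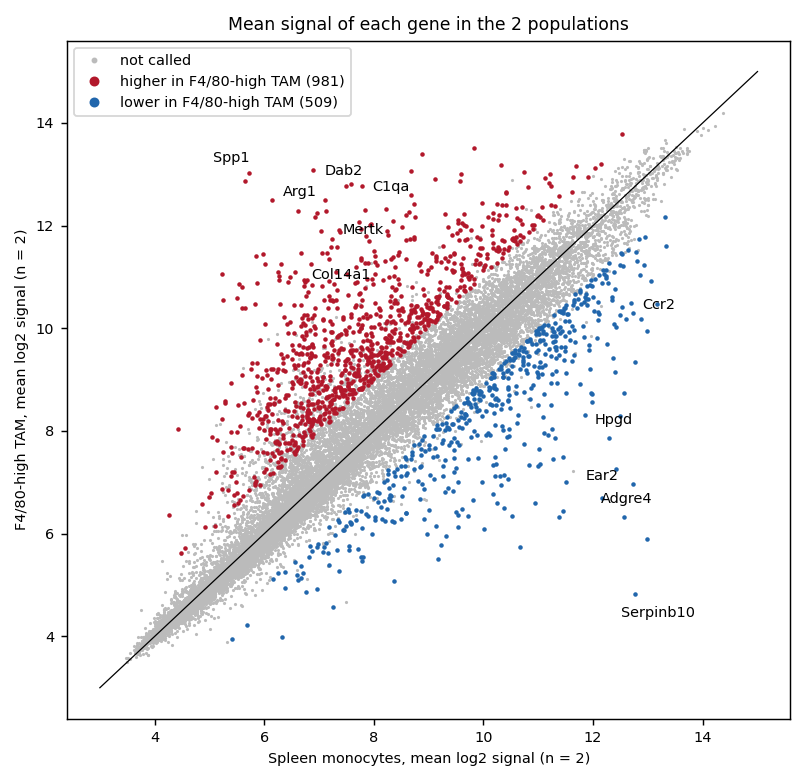
Mean log2 signal of each of 21442 genes in F4/80-high TAM (vertical) against spleen monocytes (horizontal), n = 2 arrays each, with the line of equal signal. The 981 genes called higher lie above the line, up to Spp1 at a mean of 13.03 against 5.73, and the 509 called lower lie below it, down to Serpinb10 at 4.83 against 12.77.

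Among the genes allowed by the naming rule, Spp1 and Arg1 had the largest rises. Spp1, which encodes osteopontin, a secreted phosphoprotein that binds integrins and CD44, had 12.98 and 13.07 in F4/80-high TAM, against 5.62 and 5.84 in spleen monocytes. This was a 157-fold rise (7.30 ± 0.15, adjusted p = 1.91e-05). Arg1, which splits arginine into ornithine and urea, had 12.42 and 12.60, against 6.15 and 6.14 in spleen monocytes (6.36 ± 0.15, adjusted p = 2.15e-05). In both genes the replicates of a population lay close together, and the populations were far apart. Ch25h, which makes 25-hydroxycholesterol, had 11.33 and 10.80, against 5.30 and 5.16 in spleen monocytes (5.83 ± 0.31). The macrophage surface gene Fcrls had 11.82 and 11.00, against 6.32 and 5.39 in spleen monocytes (5.56 ± 0.36). Pmepa1, a target and inhibitor of TGF-beta signalling, had 12.11 and 12.39, against 7.17 and 6.74 in spleen monocytes (5.29 ± 0.24). The small proteoglycan Bgn (5.46 ± 0.56), the interleukin Il1a (5.32 ± 0.53) and the monocyte-attracting chemokines Ccl7 (5.39 ± 0.17) and Ccl12 (5.30 ± 0.36) completed the 10, with Dab2. Dab2, an endocytic adaptor, had 13.19 and 12.99, against 8.04 and 5.75 in spleen monocytes (6.19 ± 0.64). Its monocyte replicates stood apart, both were below both F4/80-high TAM arrays, and a second probe set of Dab2 showed a difference of 0.01.

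Among the falls, Serpinb10 and Adgre4 had the largest. Serpinb10, an intracellular serine protease inhibitor of myeloid cells, had 4.97 and 4.70 in F4/80-high TAM, against 12.82 and 12.72 in spleen monocytes (-7.94 ± 0.24, adjusted p = 5.46e-05). Adgre4, an adhesion receptor related to F4/80, had 6.02 and 6.62, against 12.52 and 12.62 in spleen monocytes (-6.25 ± 0.22, adjusted p = 6.78e-05). Both genes were bright in both monocyte arrays and among the dimmer signals in F4/80-high TAM. The ribonuclease genes Ear2 (-5.76 ± 0.48), Ear10 (-5.46 ± 0.48) and Ear1 (-5.04 ± 0.42) also fell. They are near-identical copies that probes may not separate, so they may be a single signal, and a second probe set of Ear1 gave -1.19. Hpgd, which inactivates prostaglandins, had 7.51 and 8.21, against 12.27 and 12.33 in spleen monocytes (-4.44 ± 0.24). Klrb1f, a lectin-like receptor (-4.92 ± 0.13), the exocytosis gene Stxbp6 (-4.50 ± 0.13), the guanine nucleotide exchange factor gene Arhgef37 (-5.01 ± 0.29) and the diacylglycerol kinase Dgkg (-4.34 ± 0.39) completed the 10. All 20 of these genes passed the threshold with any array left out.

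**Figure D3:**
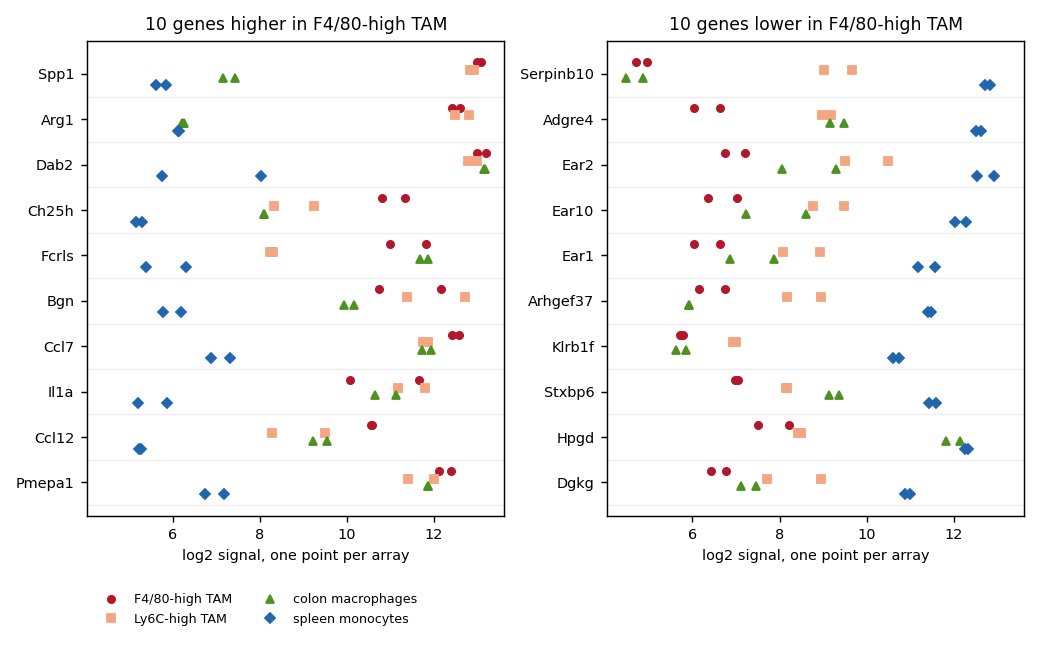
Log2 signal of the 10 genes with the largest rises (left) and falls (right) allowed by the naming rule, a point per array, with 2 arrays in each of 4 populations. In every row the F4/80-high TAM points lie apart from the spleen monocyte points, and Arg1 and Spp1 read high in both tumour populations but low in colon macrophages.

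Across the other populations these 20 genes took different positions. Arg1 read 12.81 and 12.48 in Ly6C-high TAM and 6.22 and 6.26 in colon macrophages, so the colon level was that of spleen monocytes. Fcrls read 8.31 and 8.24 in Ly6C-high TAM and 11.67 and 11.87 in colon macrophages, and it was higher in F4/80-high TAM than in Ly6C-high TAM (3.13 ± 0.36, adjusted p = 0.0372). Serpinb10 read 9.02 and 9.66 in Ly6C-high TAM, between the populations compared here, and was lower in F4/80-high TAM than there (-4.51 ± 0.24, adjusted p = 0.00597). Hpgd read 11.82 and 12.15 in colon macrophages, close to spleen monocytes, and 8.41 and 8.48 in Ly6C-high TAM. For scale, 36 genes (0.168%) were higher and 21 (0.0979%) lower in F4/80-high TAM than in Ly6C-high TAM, and 573 (2.67%) higher and 797 (3.72%) lower than in colon macrophages. These comparisons share the F4/80-high TAM arrays with the one described here. Replicate differences went together in the tumour populations (correlation of 0.770), and the contrasts between them, here and below, did not use pairing.

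The genes for the sort markers Ly6C and F4/80 were among those used to separate the populations, so their direction is not independent of the sort. Ly6c1 and Ly6c2, which encode Ly6C antigens, were lower in F4/80-high TAM (-1.74 ± 0.27 and -1.68 ± 0.24, adjusted p = 0.0101 and adjusted p = 0.00683). Ly6c2 had 10.91 and 11.57, against 12.91 and 12.93 in spleen monocytes, so the tumour cells still read far above the array's lowest signals. Adgre1, which encodes F4/80, had 12.49 and 12.31, against 12.07 and 12.02 in spleen monocytes, and did not pass (0.36 ± 0.24, adjusted p = 0.434). Mertk, a receptor for dying cells that marks macrophages, had 11.94 and 11.52, against 7.52 and 6.95 in spleen monocytes (4.50 ± 0.44). Cd14, a lipopolysaccharide co-receptor (2.31 ± 0.32), and Fcgr1, the high-affinity Fc receptor (1.22 ± 0.20), were higher. Ccr2, the receptor for marrow exit and tissue entry, fell to 10.60 and 10.37, against 12.74 and 12.66 in spleen monocytes (-2.21 ± 0.30). Csf1r (-0.17 ± 0.12), Cx3cr1 (0.34 ± 0.47), Itgam (0.11 ± 0.14), Cd68 (0.04 ± 0.12), Lyz2 (-0.29 ± 0.11) and the myeloid transcription factor Spi1 (-0.25 ± 0.12) did not pass. Ly6c1, Ly6c2 and Ccr2 lost their calls without either monocyte array (adjusted p of up to 0.0829, 0.0674 and 0.0595), and Fcgr1 without any single one of the 4 arrays compared (up to 0.105).

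Genes of classical monocytes were lower. Of 32 measured, 17 fell (53.1%) and 0 rose, with a median of -1.88. Beside Serpinb10, the surface antigen gene Cd177 had 7.34 and 7.64 in F4/80-high TAM, against 11.43 and 11.49 in spleen monocytes (-3.97 ± 0.20, adjusted p = 0.000192). The monocyte arrays were nearly equal and lay above both F4/80-high TAM arrays. The membrane protein gene Ifitm6 (-3.81 ± 0.21) and the haemoglobin-binding protein Hp (-3.54 ± 0.32) also fell. Plac8 fell by 3.41 ± 0.64 with F4/80-high TAM values of 8.31 and 10.39, and lost its call without either monocyte array (adjusted p of up to 0.121). The alarmin S100a8 (-0.82 ± 0.74) and fibronectin, Fn1 (-0.30 ± 0.12), did not pass. Chil3, a chitinase-like protein, had 9.24 and 5.21 in F4/80-high TAM, against 11.58 and 11.69 in spleen monocytes, and its replicate gap left it short of the threshold (-4.40 ± 1.37, adjusted p = 0.0956). The count of 17 was 7 without spleen monocyte replicate 1, 6 without spleen monocyte replicate 2 and 23 with the second arrays of both tumour groups left out.

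Genes of patrolling monocytes fell as well, although the monocytes had been sorted as Ly6C-high. Of 17 measured, 6 were lower (35.3%) and 0 higher, with a median of -0.88, and all 6 were called with any array left out. Ace, the angiotensin-converting enzyme, had 7.86 and 8.74 in F4/80-high TAM, against 12.37 and 12.60 in spleen monocytes (-4.19 ± 0.34). Treml4, a receptor for dead cells on patrolling monocytes and spleen macrophages, had 8.94 and 9.37, against 12.38 and 12.42 in spleen monocytes (-3.24 ± 0.17). Both were bright in the 2 monocyte arrays, and the groups did not overlap. Spn, which encodes CD43 (-2.12 ± 0.14), and the integrin chain Itgal (-1.73 ± 0.16) fell, with Adgre4 and Ear2. The patrolling cell regulator Nr4a1 (-0.94 ± 0.44) did not pass.

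The monocyte arrays also read genes of red pulp macrophages. Spic, the factor for iron-recycling macrophages, had 6.26 and 6.58 in F4/80-high TAM, against 9.65 and 9.35 in spleen monocytes (-3.08 ± 0.20, adjusted p = 0.000331). Of 10 markers of these cells, 3 were lower (Hpgd, Treml4 and Spic) and 2 higher (Siglec1, 1.84 ± 0.34, and Vcam1, 3.01 ± 0.63). The mean signal over the list was 9.82 and 9.71 in F4/80-high TAM, against 10.35 and 10.29 in spleen monocytes. The defining markers Hmox1 (0.26 ± 0.14) and Slc40a1 (-0.83 ± 0.71), for haem breakdown and iron export, did not pass, and Vcam1 and Siglec1 lost their calls in several of the fits with an array left out (adjusted p of up to 0.178 and 0.13). The part of other spleen cells in the falls of patrolling and red pulp genes was not tested.

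Trafficking receptors and adhesion molecules gave calls in both directions, those higher resting on single arrays. Of 20 genes for marrow exit, homing and adhesion, 9 were lower (45%) and 3 higher (15%). S1pr5, a sphingosine-1-phosphate receptor for exit from marrow, had 6.70 and 6.49 in F4/80-high TAM, against 10.24 and 10.24 in spleen monocytes (-3.65 ± 0.22, adjusted p = 0.000257). Flt3, a cytokine receptor of progenitors and dendritic cells, had 6.19 and 6.51, against 9.66 and 9.77 in spleen monocytes (-3.37 ± 0.49). Both receptors were thus lower, as was Ccr2. Flt3 lost its call without either monocyte array (adjusted p of up to 0.0704). The count of 9 lower was 3 without either monocyte array, and the 3 higher were 0 without spleen monocyte replicate 2, 1 without F4/80-high TAM replicate 2 and 5 without either Ly6C-high TAM array. Of 22 granule genes of neutrophils and early myeloid cells, 4 were lower (18.2%) and 0 higher. They were Cd177, the collagenase Mmp8 (-3.44 ± 0.62), the growth factor receptor Csf3r (-1.34 ± 0.23) and the granule protease Ctsg (-1.18 ± 0.18). Mmp8, Csf3r and Ctsg lost their calls without F4/80-high TAM replicate 2 or either monocyte array. Mmp8 and Csf3r also lost theirs without F4/80-high TAM replicate 1.

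**Figure D4:**
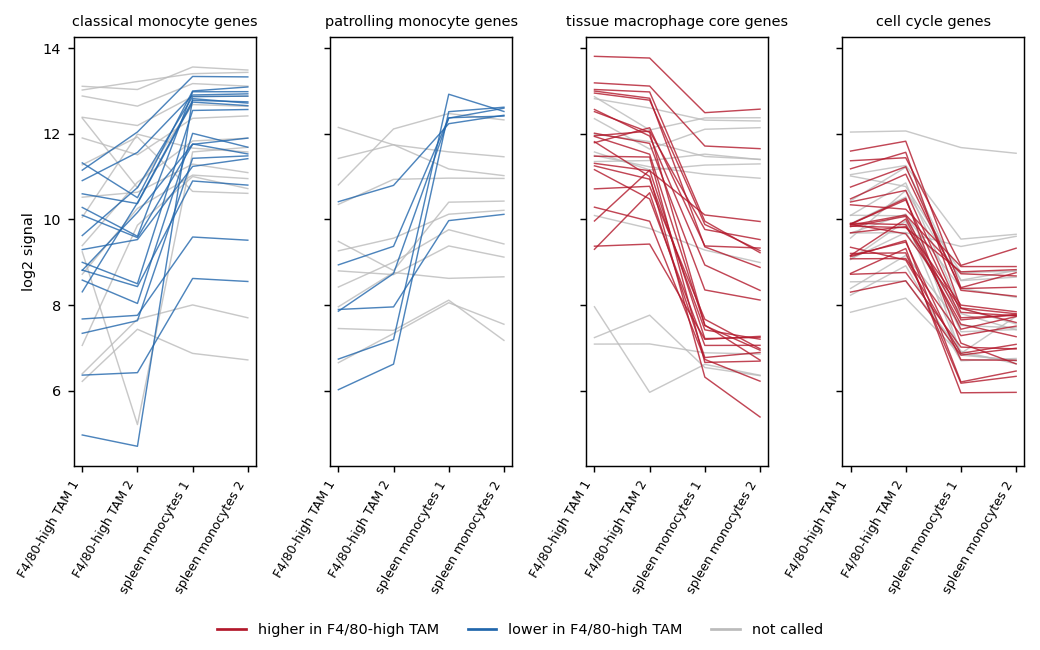
Log2 signal of every measured gene of 4 lists in the 4 arrays compared, a line per gene, coloured by its call. The 17 classical and 6 patrolling monocyte genes called lower lie above their F4/80-high TAM values in both monocyte arrays, while the 21 macrophage core genes and 24 cell cycle genes called higher lie above their monocyte values in both F4/80-high TAM arrays.

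Core genes of tissue macrophages were higher. Of 32 measured, 21 rose (65.6%) and 0 fell, with a median of 2.49. Stab1, a scavenger receptor that clears altered proteins and matrix fragments, had 12.52 and 12.04 in F4/80-high TAM, against 7.53 and 6.72 in spleen monocytes (5.15 ± 0.34, adjusted p = 0.000371). Cd63, a tetraspanin of late endosomes, had 11.48 and 11.46, against 6.66 and 6.69 in spleen monocytes (4.79 ± 0.22). In both genes all arrays of a population were on one side, with no overlap. Gatm, a creatine synthesis enzyme (3.80 ± 0.18), Tmem119 (3.78 ± 0.24), a membrane protein best known from microglia, and Folr2, a folate receptor (3.76 ± 0.28), rose as well. Folr2 was also higher than in Ly6C-high TAM (2.71 ± 0.28, adjusted p = 0.0324). The apolipoprotein Apoe, already bright in monocytes, rose, with 13.81 and 13.77, against 12.49 and 12.58 in spleen monocytes (1.26 ± 0.11). The haemoglobin scavenger receptor Cd163 had 7.96 and 5.96, against 6.62 and 6.36 in spleen monocytes, and did not pass (0.47 ± 0.61, adjusted p = 0.705). Selenop (0.11 ± 0.28) also did not pass. The list count lay between 18 and 22 with any array left out.

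Uptake receptors rose in part. Of 33 scavenger and apoptotic cell receptors and bridging proteins, 9 were higher (27.3%) and 2 lower (6.06%). Mrc1, the mannose receptor, had 12.57 and 11.95 in F4/80-high TAM, against 8.94 and 8.34 in spleen monocytes (3.62 ± 0.38). Clec4n, which encodes the fungal receptor Dectin-2, had 11.69 and 11.79, against 8.74 and 8.58 in spleen monocytes (3.08 ± 0.18). Of the TAM receptor kinases for dying cells, Mertk and Axl (1.92 ± 0.13) rose and Tyro3 (0.37 ± 0.19) did not pass. Of their ligands, Gas6 rose (3.65 ± 0.67) and Pros1 fell (-1.30 ± 0.23). Gas6 lost its call without any single one of the 4 arrays compared (adjusted p of up to 0.135), and Pros1 without F4/80-high TAM replicate 2 or either monocyte array (up to 0.132). The lipoprotein receptor Scarb1 fell to 9.76 and 10.32, against 11.87 and 11.75 in spleen monocytes (-1.77 ± 0.20). Timd4 (-0.03 ± 0.28), Marco (-0.35 ± 0.19) and Msr1 (0.81 ± 0.14) did not pass.

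Complement genes rose. Of 21 components and receptors measured, 13 were higher (61.9%) and 0 lower, with a median of 1.84. The 3 chains of C1q, which starts the classical pathway, were all higher: C1qa had 12.69 and 12.86 in F4/80-high TAM, against 8.29 and 7.27 in spleen monocytes (5.00 ± 0.31, adjusted p = 0.000309). C1qb (3.69 ± 0.24) and C1qc (4.51 ± 0.32) followed, and in all 3 chains spleen monocyte replicate 1 read above replicate 2, with 10.20 and 9.45 for C1qb and 9.36 and 8.40 for C1qc. The receptors for the split products C3a and C5a, C3ar1 (4.39 ± 0.23) and C5ar1 (2.40 ± 0.11), were higher, as was Cfb of the alternative pathway (2.00 ± 0.23). C3, the central component, did not pass (-0.78 ± 0.28). The phagocytic receptor Vsig4 read 9.18 and 5.40 in F4/80-high TAM, against 5.00 and 4.73 in spleen monocytes, high in replicate 1 alone (2.42 ± 1.09, adjusted p = 0.229).

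Antigen presentation differed little at the class II molecules. Of 16 genes, 3 were higher (18.8%) and 1 lower (6.25%). H2-Ab1 (0.18 ± 0.18), H2-Aa (0.14 ± 0.16) and the invariant chain Cd74 (0.04 ± 0.15) did not pass. Those higher were the costimulatory ligand Cd86 (1.75 ± 0.14) and the checkpoint ligands Cd274, which encodes PD-L1, and Pdcd1lg2, which encodes PD-L2 (2.32 ± 0.54). Cd274 had 11.31 and 11.62 in F4/80-high TAM, against 9.52 and 9.41 in spleen monocytes (2.00 ± 0.14). The class II transactivator Ciita was lower (-1.14 ± 0.26). Pdcd1lg2 and Ciita lost their calls in 4 or more of the fits with an array left out (adjusted p of up to 0.229 and 0.214).

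Lysosomal genes rose for some enzymes. Of 38 measured, 9 were higher (23.7%) and 0 lower, with a median of 0.48. Ctsl, a cysteine protease, had 12.95 and 12.79 in F4/80-high TAM, against 9.88 and 9.27 in spleen monocytes (3.29 ± 0.20, adjusted p = 0.000304). Acp5, an acid phosphatase shared with bone-resorbing cells, had 11.82 and 12.02, against 9.58 and 9.57 in spleen monocytes (2.34 ± 0.12). Ctsd (1.79 ± 0.12) and the asparagine protease Lgmn (1.47 ± 0.15) rose, while Ctsb (0.30 ± 0.11), Ctss (0.03 ± 0.16) and Lamp1 (-0.01 ± 0.11) did not pass. The proton pump subunit Atp6v0d2 rose (2.98 ± 0.46) with F4/80-high TAM values of 7.76 and 9.25, and lost its call without either monocyte array (adjusted p of up to 0.0805). The count was 5 without spleen monocyte replicate 2.

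Lipid genes were split. Of 31 measured, 7 were higher (22.6%) and 3 lower (9.68%), with a median of 0.16. Beside Ch25h, Abca1, which exports cholesterol, had 12.02 and 11.78 in F4/80-high TAM, against 8.35 and 8.12 in spleen monocytes (3.66 ± 0.23, adjusted p = 0.000309). Trem2, a lipid-sensing receptor, had 11.96 and 12.06, against 9.77 and 9.53 in spleen monocytes (2.36 ± 0.14). The triglyceride enzyme Dgat2 (-1.88 ± 0.25), the lipoprotein lipase Lpl (-1.45 ± 0.30) and the sterol hydroxylase Cyp27a1 (-1.38 ± 0.33) were lower, and these calls were lost without either monocyte array (adjusted p of up to 0.0529, 0.174 and 0.209). The count of 7 was 4 without either monocyte array. Abcg1 (0.08 ± 0.21), the partner exporter of Abca1, did not pass.

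Iron genes gave calls in both directions. Of 20 measured, 4 were higher (20%) and 2 lower (10%), Hp and Spic being the lower ones. Over all genes the shares were 4.58% and 2.37%. The metal importer Slc39a14 had 9.11 and 9.35 in F4/80-high TAM, against 6.54 and 6.59 in spleen monocytes (2.67 ± 0.15). The ferroxidase Cp (3.84 ± 0.55), the transferrin receptor Tfrc (1.83 ± 0.37) and the biliverdin reductase Blvrb (1.28 ± 0.22) rose, and each was no longer called without F4/80-high TAM replicate 2 or either monocyte array (adjusted p of up to 0.0729, 0.168 and 0.117), which left 1 gene higher. The ferritin chains Fth1 (0.24 ± 0.12) and Ftl1 (0.08 ± 0.11) did not pass.

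Arginine use and itaconate synthesis rose beyond Arg1. Of 17 genes, 6 were higher (35.3%) and 0 lower. Irg1, which makes itaconate from aconitate, had 11.15 and 11.78 in F4/80-high TAM, against 7.10 and 7.20 in spleen monocytes (4.32 ± 0.28, adjusted p = 0.000328). The cationic amino acid transporter Slc7a2 had 9.58 and 10.59, against 6.07 and 5.96 in spleen monocytes (4.07 ± 0.32). Nos2, which makes nitric oxide from the same arginine, had 9.13 and 10.22, against 6.56 and 6.73 in spleen monocytes (3.04 ± 0.33). All 3 genes were dim in both monocyte arrays and bright in both F4/80-high TAM arrays, and these calls were kept with any array left out. All 3 were also higher than in colon macrophages, by 4.42 for Irg1, 3.82 for Slc7a2 and 3.16 for Nos2 (adjusted p = 0.00109, 0.00231 and 0.00413). The polyamine enzymes Odc1 (2.41 ± 0.56) and Srm (1.48 ± 0.23) rose, but lost their calls in 3 or more fits with an array left out (adjusted p of up to 0.238 and 0.0957). Arg2 (1.48 ± 0.38) and Ass1 (1.07 ± 0.41) did not pass.

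Among 28 genes of alternative activation, 14 were higher (50%) and 1 lower, with a median of 1.07. The cytokine signalling inhibitor Socs2 had 10.90 and 10.71 in F4/80-high TAM, against 5.83 and 5.36 in spleen monocytes (5.21 ± 0.30), and a second probe set gave 1.27. The transglutaminase Tgm2 had 11.82 and 12.51, against 8.86 and 8.65 in spleen monocytes (3.41 ± 0.23). The transcription factor Irf4, linked to this state in macrophages, was the gene that fell, to 6.83 and 6.85, against 9.53 and 9.37 in spleen monocytes (-2.61 ± 0.14). Il10, an anti-inflammatory cytokine, read 6.37 and 6.83, against 5.67 and 5.37 in spleen monocytes (1.08 ± 0.23) and 10.58 and 11.09 in colon macrophages, and was no longer called without F4/80-high TAM replicate 2 or either monocyte array (adjusted p of up to 0.217). The markers Retnla (0.23 ± 0.64) and Clec10a (-0.88 ± 0.13) did not pass. Chil3, described above, had the lowest difference of the list and did not pass either (-4.40 ± 1.37). The list count was 8 without spleen monocyte replicate 2. Genes usually grouped as alternative (Arg1, Mrc1) and as classical activation (Nos2, Il1a) were thus higher in the same arrays.

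Hypoxia and glycolysis genes were higher in part. These genes are switched on by hypoxia-inducible factors, which bind a short core in promoters. Of 39 measured, 10 rose (25.6%) and 0 fell, with a median of 0.66. Bnip3, a mitophagy receptor, had 11.20 and 11.01 in F4/80-high TAM, against 8.84 and 8.88 in spleen monocytes (2.25 ± 0.22, adjusted p = 0.00166), and it read 7.79 and 8.21 in colon macrophages. Vegfa, the angiogenic growth factor, had 11.26 and 11.92, against 7.45 and 7.21 in spleen monocytes (4.26 ± 0.35). Egln3, an oxygen sensor (2.81 ± 0.32), Aldoc (2.88 ± 0.29) and Tpi1 (1.66 ± 0.19) of glycolysis and the glucose carrier Slc2a1 (2.06 ± 0.26) rose. Ldha, which makes lactate, had 12.84 and 13.04, against 11.67 and 11.59 in spleen monocytes (1.31 ± 0.17). Slc2a1 and Ldha lost their calls without spleen monocyte replicate 2 (adjusted p of up to 0.0554 and 0.059), and the list count was then 5. The glycolytic genes Gapdh (0.21 ± 0.11), Pgk1 (0.78 ± 0.20) and Hk2 (0.72 ± 0.18) and the factor Hif1a itself (0.53 ± 0.18) did not pass. Of 30 respiratory chain genes, 0 were higher and 1 lower (3.33%), against 2.37% lower over all genes. The 1 lower was Ndufa4 (-1.31 ± 0.17), which lost its call without spleen monocyte replicate 2.

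The core of the hypoxia response element, ACGTG on either strand, was searched in RefSeq promoter windows of the GRCm38.p6 build, 250 bases before to 50 after the start. It was present in 24 of the 35 list members with a window, and in 21.8% of 27025 genes with one. Among members called higher it was in 7 of 10, and among the others in 17 of 25. The motif was thus about as frequent in members that did not pass as in those that rose. The windows of Bnip3 (chr7:138909457-138909756, minus strand) and Ldha (chr7:46845554-46845853, plus strand) are shown because both hold the core, with each match on either strand in capitals.
Bnip3: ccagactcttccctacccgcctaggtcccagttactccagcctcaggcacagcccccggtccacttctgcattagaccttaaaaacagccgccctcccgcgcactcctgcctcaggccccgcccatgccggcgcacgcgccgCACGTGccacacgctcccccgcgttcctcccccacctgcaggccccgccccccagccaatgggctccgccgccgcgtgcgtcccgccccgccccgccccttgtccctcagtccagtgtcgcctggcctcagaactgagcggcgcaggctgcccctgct
Ldha: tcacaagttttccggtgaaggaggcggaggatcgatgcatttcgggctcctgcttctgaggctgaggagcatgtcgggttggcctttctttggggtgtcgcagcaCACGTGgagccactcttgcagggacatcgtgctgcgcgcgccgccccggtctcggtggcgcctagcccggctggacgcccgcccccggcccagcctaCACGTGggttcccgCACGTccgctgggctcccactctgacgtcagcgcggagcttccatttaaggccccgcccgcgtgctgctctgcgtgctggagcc
In both windows CACGTG occurs, which holds the core on both strands. The Ldha window is 1 of 2 listed for the gene. A match is a description of the letters and not a binding site.

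Interferon-response genes rose in part. Of 46 measured, 9 were higher (19.6%) and 1 lower, with a median of 0.19. Iigp1, an interferon-inducible GTPase, had 10.59 and 10.35 in F4/80-high TAM, against 5.80 and 5.86 in spleen monocytes (4.64 ± 0.17, adjusted p = 6.83e-05). Ifi44 had 11.62 and 11.25, against 8.16 and 8.73 in spleen monocytes (2.99 ± 0.27). Cxcl10, a T cell-attracting chemokine, had 12.90 and 12.93, against 11.11 and 11.13 in spleen monocytes (1.80 ± 0.18). These 3 were higher in both arrays, while Isg15 had 7.28 and 7.17, against 6.45 and 6.70 in spleen monocytes, and did not pass (0.65 ± 0.23, adjusted p = 0.136). Ifit1 (0.74 ± 0.28), Oas3 (-0.17 ± 0.15) and Mx1 (0.04 ± 0.19) likewise did not pass. Cxcl9 (2.25 ± 0.15), Bst2 (1.67 ± 0.19) and Oasl1 (1.43 ± 0.13) rose. Slfn5 was the gene called lower (-1.10 ± 0.24), and lost that call without any single array other than those of Ly6C-high TAM.

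The interferon-stimulated response element was searched as GAAA, any 2 bases and GAAA again, on both strands of the same windows. It was in 19 of the 34 members with a window and in 3.99% of all genes. It was in 4 of 8 members called higher and in 15 of the 26 others. The windows of Cxcl10 (chr5:92348840-92349139, minus strand), which rose, and of Isg15 (chr4:156200769-156201068, minus strand), which did not pass, are shown because both hold the motif (capitals).
Cxcl10: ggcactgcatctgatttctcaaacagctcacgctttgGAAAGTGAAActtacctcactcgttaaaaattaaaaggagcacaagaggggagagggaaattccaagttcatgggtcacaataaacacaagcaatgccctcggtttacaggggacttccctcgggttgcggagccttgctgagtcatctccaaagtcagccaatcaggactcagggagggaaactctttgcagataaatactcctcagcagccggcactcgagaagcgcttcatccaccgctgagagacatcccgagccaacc
Isg15: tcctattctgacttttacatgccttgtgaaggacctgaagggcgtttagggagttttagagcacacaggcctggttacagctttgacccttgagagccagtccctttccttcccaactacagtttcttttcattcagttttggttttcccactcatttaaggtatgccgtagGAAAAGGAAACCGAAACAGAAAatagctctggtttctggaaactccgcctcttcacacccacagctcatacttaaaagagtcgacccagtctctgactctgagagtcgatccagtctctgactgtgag
Cxcl10 holds 1 match and Isg15 3 overlapping matches. Both were chosen for holding the motif, so this pair cannot show whether a match separates genes that rose from others.

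Chemokine genes rose. Of 29 measured, 15 were higher (51.7%) and 0 lower, with a median of 1.99. Ccl7 had 12.57 and 12.42 in F4/80-high TAM, against 7.33 and 6.89 in spleen monocytes (adjusted p = 5.46e-05). Ccl12, another ligand of CCR2, had 10.57 and 10.55, against 5.23 and 5.28 in spleen monocytes, while Ccr2 itself was lower. Pf4, best known from platelets, had 12.05 and 12.29, against 7.12 and 6.72 in spleen monocytes (5.25 ± 0.17), and Ppbp, also a platelet chemokine, was higher (3.92 ± 0.45). Of 12 erythroid and platelet markers these were the 2 called (16.7%), and the platelet integrin Itga2b (-0.18 ± 0.16) did not pass. Ccl8 (4.80 ± 0.65), Cxcl16 (3.69 ± 0.26), Cxcl14 (3.48 ± 0.34) and Ccl5 (2.09 ± 0.27) rose. Ccl2 had 12.57 and 12.63, against 9.92 and 7.44 in spleen monocytes (3.92 ± 0.71), and Cxcl2, a neutrophil attractant, had 10.81 and 11.91, against 8.90 and 5.46 (4.18 ± 1.01). In both genes spleen monocyte replicate 1 read far above replicate 2. Ccl2 lost its call without either F4/80-high TAM array (adjusted p of up to 0.0905) and Cxcl2 without either of these, either colon array or spleen monocyte replicate 2 (up to 0.213). Ccl3 read 12.93 and 12.86, against 12.13 and 8.90 in spleen monocytes, and did not pass (2.38 ± 0.89).

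Cytokine genes and their receptors rose in part. Of 42 measured, 14 were higher (33.3%) and 3 lower. Il1a, an alarmin, had 10.08 and 11.65 in F4/80-high TAM, against 5.88 and 5.21 in spleen monocytes. Trem1, an amplifier of inflammatory signals, had 11.03 and 11.51, against 7.95 and 7.83 in spleen monocytes (3.38 ± 0.20, adjusted p = 0.000257). Tnf rose to a mean of 10.50, against 9.05 in spleen monocytes (1.45 ± 0.19), while Il1b (1.44 ± 0.36) and Il23a (0.36 ± 0.22) did not pass. The inhibitory side of the interleukin 1 system rose as well, with the receptor antagonist Il1rn (2.17 ± 0.30) and the decoy receptor Il1r2 (2.79 ± 0.59). The TNF receptor Tnfrsf1b (-1.30 ± 0.14) and the interleukin 6 receptor Il6ra (-1.48 ± 0.22) were lower, with Csf3r. Ptgs2, which makes prostaglandins, had 11.42 and 12.71, against 9.53 and 5.93 in spleen monocytes (4.33 ± 1.08, adjusted p = 0.0494). Spleen monocyte replicate 1 stood close to the tumour cells and replicate 2 far below. Ptgs2 and Il1r2 lost their calls in most fits with an array left out (adjusted p of up to 0.235 and 0.171). Il6ra did so without either monocyte array (up to 0.0776), and Tnf and Il1rn without spleen monocyte replicate 2 (up to 0.0609 and 0.0675). The count of 14 was 9 and 6 without F4/80-high TAM replicate 1 or 2, and 9 and 4 without spleen monocyte replicate 1 or 2.

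Immediate early genes respond to tissue digestion as well as to signals. Of 25 measured, 4 were higher (16%) and 1 lower (4%). Their mean signal was 10.45 and 11.12 in F4/80-high TAM, against 10.48 and 9.71 in spleen monocytes, so that spleen monocyte replicate 1 read as high as F4/80-high TAM replicate 1. Fosb, for example, had 10.95 and 12.22, against 10.48 and 7.91 in spleen monocytes. Tissue digestion was described alike for all samples, and the part of this difference in the chemokine and cytokine results was not tested.

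Growth factors for vessels and repair rose in part. Of 33 measured, 8 were higher (24.2%) and 1 lower. Tgfb3, a TGF-beta ligand, had 10.05 and 10.75 in F4/80-high TAM, against 5.60 and 5.69 in spleen monocytes (4.76 ± 0.40, adjusted p = 0.000871). Pdgfc had 10.49 and 10.46, against 6.25 and 6.31 in spleen monocytes (4.20 ± 0.53), and Pdgfa (2.41 ± 0.15) and Pdgfb (1.79 ± 0.29) rose too, although a second probe set of Pdgfa gave -0.02. These PDGF ligands act on fibroblasts and pericytes. Thbs1, an inhibitor of vessel growth and activator of TGF-beta, rose (2.31 ± 0.21), while Tgfb1 (-0.80 ± 0.18) and Igf1 (0.86 ± 0.61) did not pass. Flt1, a VEGF receptor, was lower at 7.03 and 7.94, against 9.33 and 9.60 in spleen monocytes (-1.98 ± 0.28). Pdgfb lost its call without either monocyte array and Flt1 without spleen monocyte replicate 2 (adjusted p of up to 0.0952 and 0.0729), and 5 genes were higher without either monocyte array.

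Cell cycle genes were higher, with calls that depended on single arrays. Of 40 measured, 24 rose (60%) and 0 fell, with a median of 2.17, and the lowest difference of the list was 0.20. Cdk1, the kinase of mitotic entry, had 11.18 and 11.57 in F4/80-high TAM, against 7.92 and 7.59 in spleen monocytes (3.62 ± 0.67, adjusted p = 0.0189). Top2a, which untangles DNA before division, had 10.41 and 10.68, against 7.83 and 7.75 in spleen monocytes (2.75 ± 0.63, adjusted p = 0.0383). For these probe sets the 2 arrays of each population lay close together, and the groups did not overlap. Top2a is assigned 5 probe sets, and the others, dimmer than the one used, gave 0.39, -0.61, -1.20 and -1.24, so the gene's direction rests on the brightest. The list mean was 9.76 and 10.08 in F4/80-high TAM, against 7.81 and 7.82 in spleen monocytes. In Ly6C-high TAM, Cdk1 read 8.91 and 11.18 and Top2a 8.50 and 10.71, and this gap between replicates enters the shared spread. The count was 38 without either Ly6C-high TAM array, 37 with the 4 arrays of the comparison alone and 13 without either colon array. It was 7 and 4 without F4/80-high TAM replicate 1 or 2, and 2 without either monocyte array. Tyms, a thymidylate enzyme (2.22 ± 0.25), and the cyclin Ccne1 (1.69 ± 0.17) passed with any array left out, while Cdk1 and Top2a did not (adjusted p of up to 0.134 and 0.201). Mki67 (2.12 ± 0.53) and Pcna (0.44 ± 0.13) did not pass.

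A pair of promoter motifs of genes expressed in division were searched in the same windows on both strands, TTTGAA (the cell cycle homology region) and CCAAT (bound by NF-Y). TTTGAA was in 16 and CCAAT in 24 of 33 members with a window, against 20.2% and 41.1% of all genes. Of 20 members called higher, 8 held TTTGAA and 13 held CCAAT, and of the 13 others 8 and 11. The windows of Cdk1 (chr10:69352863-69353162, minus strand) and Top2a (chr11:99024140-99024439, minus strand) are shown because they hold both motifs, which do not overlap there (capitals mark either motif on either strand).
Cdk1: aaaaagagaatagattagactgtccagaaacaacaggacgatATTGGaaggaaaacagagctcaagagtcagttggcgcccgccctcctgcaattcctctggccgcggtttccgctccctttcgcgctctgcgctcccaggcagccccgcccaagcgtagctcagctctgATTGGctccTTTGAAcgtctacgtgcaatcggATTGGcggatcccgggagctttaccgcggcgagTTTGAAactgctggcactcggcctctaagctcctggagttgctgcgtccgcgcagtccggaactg
Top2a: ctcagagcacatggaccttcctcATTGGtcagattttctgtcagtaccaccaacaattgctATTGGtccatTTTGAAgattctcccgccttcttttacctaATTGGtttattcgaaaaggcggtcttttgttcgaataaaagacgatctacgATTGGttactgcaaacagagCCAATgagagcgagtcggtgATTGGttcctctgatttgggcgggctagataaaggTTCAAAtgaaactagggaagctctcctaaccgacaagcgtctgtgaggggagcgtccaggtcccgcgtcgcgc
Cdk1 holds 2 matches of TTTGAA and 3 of CCAAT, and Top2a 2 and 6.

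Transcription factors changed selectively. Of 42 measured, 8 were higher (19%) and 3 lower (7.14%). Maf, a factor that restrains macrophage self-renewal, had 12.00 and 11.81 in F4/80-high TAM, against 9.60 and 9.94 in spleen monocytes (2.13 ± 0.16, adjusted p = 0.000597). Myc, which drives growth, had 10.80 and 11.14, against 8.12 and 7.63 in spleen monocytes (3.09 ± 0.19). Maf and Myc were thus higher in the same arrays. Egr2 (2.70 ± 0.32) and the repressor Bhlhe41 (2.54 ± 0.17) rose, and Bhlhe41 was also higher than in Ly6C-high TAM (1.99 ± 0.17, adjusted p = 0.0186). Nr4a2 rose (3.48 ± 0.63), but was no longer called without F4/80-high TAM replicate 2 or spleen monocyte replicate 2 (adjusted p of up to 0.104). Spic, Irf4 and Cebpd (-1.21 ± 0.25) were lower, Cebpd losing its call without F4/80-high TAM replicate 2, either colon array or either monocyte array (adjusted p of up to 0.186). Irf8 (0.13 ± 0.12), Cebpa (-0.29 ± 0.27), Cebpb (-0.32 ± 0.19) and Klf4 (-0.02 ± 0.37) did not pass. The count of 8 was 5 without spleen monocyte replicate 2, and the 3 lower were 6 with median centring.

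Matrix genes were higher for glycoproteins and proteases and not for most collagens. Of 38 collagens, 1 was higher (2.63%) and 0 lower, with a median of -0.05. Col14a1, which sits on collagen fibrils, had 10.85 and 10.78 in F4/80-high TAM, against 6.63 and 6.84 in spleen monocytes (4.08 ± 0.14, adjusted p = 5.46e-05). It was also higher than in Ly6C-high TAM (2.09 ± 0.14, adjusted p = 0.00845). The fibrillar collagens Col1a1, with 8.72 and 10.17, against 8.17 and 8.26 in spleen monocytes (1.24 ± 0.62, adjusted p = 0.282), Col1a2 (1.40 ± 0.66) and Col3a1 (1.00 ± 0.29) did not pass. Col6a1 (1.48 ± 0.41), Col6a2 (1.14 ± 0.30) and Col6a3 (0.85 ± 0.43) of microfibrils did not pass. Col1a1 read higher in F4/80-high TAM replicate 2 than in replicate 1, as did the mean of the fibroblast markers, and Col14a1 was close in both. The part of fibroblast RNA in these values was not tested. Without either Ly6C-high TAM array 4 collagens were higher.

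The glycoprotein and proteoglycan list held 46 genes, 10 higher (21.7%) and 1 lower, with a median of 0.69. Bgn had 10.74 and 12.16 in F4/80-high TAM, against 6.19 and 5.78 in spleen monocytes, and its relative decorin, Dcn, had 10.82 and 11.69, against 6.26 and 5.78 (5.23 ± 0.44). Sparc, a collagen-binding protein, had 10.12 and 12.38, against 6.89 and 6.82 in spleen monocytes (4.39 ± 0.83). All 3 were higher in replicate 2 of F4/80-high TAM than in replicate 1, Sparc by the widest gap. The small proteoglycans Aspn, with 8.24 and 7.82, against 4.42 and 4.42 in spleen monocytes (3.61 ± 0.21), and Ogn (3.25 ± 0.17) differed less between replicates. Ecm1, at 12.78 and 12.48, against 10.47 and 10.34 in spleen monocytes (2.23 ± 0.20), and Thbs1 were higher. Versican, Vcan, fell to 8.81 and 10.16, against 11.76 and 11.53 in spleen monocytes (-2.16 ± 0.42). Sparc was no longer called without F4/80-high TAM replicate 2, either colon array or either monocyte array (adjusted p of up to 0.129), and Vcan without either monocyte array (up to 0.146).

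Fibroblasts also make many of these proteins. Calls among the 24 fibroblast markers numbered 3 higher (12.5%) and 1 lower, with more called higher without either Ly6C-high TAM array. Pdpn, shared with inflammatory macrophages, had 11.59 and 12.18 in F4/80-high TAM, against 7.01 and 7.05 in spleen monocytes (4.86 ± 0.26). Prrx1 (2.60 ± 0.58) and Islr (1.97 ± 0.20) were the others higher, Prrx1 with an adjusted p of up to 0.183 when single arrays were left out. Pdgfra had 7.26 and 8.03, against 6.60 and 6.45 in spleen monocytes, and did not pass (1.12 ± 0.34), nor did Dpt, with 5.19 and 7.22, against 4.72 and 4.78. The part of fibroblast RNA in the matrix results was not tested. Without F4/80-high TAM replicate 2 the counts higher were 7 matrix glycoproteins and 3 fibroblast markers.

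Of 38 matrix proteases and inhibitors, 8 were higher (21.1%) and 1 lower. Mmp12, the macrophage elastase, had 10.61 and 11.41 in F4/80-high TAM, against 6.18 and 6.38 in spleen monocytes (4.73 ± 0.25, adjusted p = 0.000192). The collagenase Mmp13 had 10.59 and 11.40, against 7.01 and 5.94 in spleen monocytes (4.52 ± 0.40). Mmp14, a membrane protease that activates the gelatinase MMP2, had 11.71 and 12.17, against 8.02 and 7.52 in spleen monocytes (4.17 ± 0.22). Adam8 (3.61 ± 0.19) and the plasminogen activator Plau (3.57 ± 0.17) rose. The neutrophil collagenase Mmp8 was the one lower. Mmp2 (2.92 ± 0.77), Mmp9 (2.14 ± 0.71) and Timp1 (3.61 ± 0.95) did not pass. Of 29 collagen processing and crosslinking enzymes, Tgm2 and the lysyl hydroxylase Plod1 (1.64 ± 0.14) were higher and 0 lower (4 higher without either Ly6C-high TAM array), and Lox (1.55 ± 1.19) did not pass.

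Matrix receptors changed in both directions. Of 29 measured, 8 were higher (27.6%) and 5 lower (17.2%). The laminin receptor chain Itga6 had 11.63 and 10.89 in F4/80-high TAM, against 6.56 and 6.06 in spleen monocytes (4.95 ± 0.30, adjusted p = 0.000272). Itga9, which binds tenascin and osteopontin, had 10.72 and 10.78, against 7.67 and 6.98 in spleen monocytes (3.42 ± 0.25). The collagen receptor chain Itga1 fell to 5.95 and 7.02, against 9.64 and 9.58 in spleen monocytes (-3.12 ± 0.33). Integrin chains for laminin and tenascin were thus higher while a collagen-binding chain was lower. The VCAM-1 receptor chain Itga4 was lower too (-2.13 ± 0.41), as was Cd44, the receptor for hyaluronan and osteopontin (-1.11 ± 0.20). The proteoglycan Sdc4 rose (3.27 ± 0.13), and the protease receptor Dpp4 fell (-3.17 ± 0.25). Itga4 was no longer called without F4/80-high TAM replicate 2 or either monocyte array and Cd44 without F4/80-high TAM replicate 1 or either monocyte array (adjusted p of up to 0.141 and 0.125). Leaving out F4/80-high TAM replicate 1 reduced the 5 to 3, and leaving out either monocyte array reduced them to 2.

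**Figure D5:**
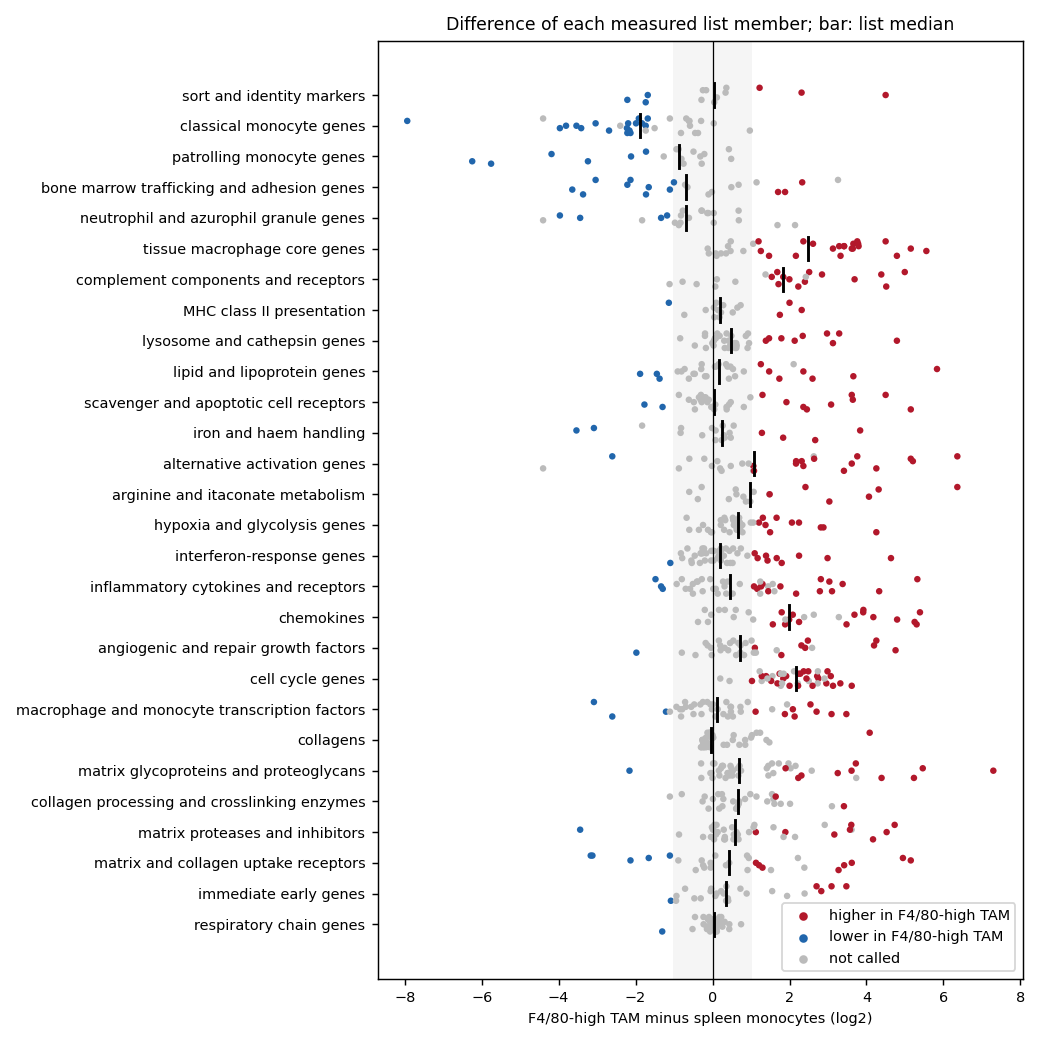
Log2 difference, F4/80-high TAM minus spleen monocytes, of each measured member of 28 gene lists (points, coloured by call), with the list median as a bar and differences under 2-fold shaded. Classical monocyte genes have a median of -1.88, macrophage core genes 2.49, cell cycle genes 2.17 and chemokines 1.99, while collagens centre on -0.05 with Col14a1 alone far to the right.

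Calls among markers of other cell types were absent from some lists. In the epithelial list the share higher was 4%, against 4.58% over all genes. In other lists the shares were above those over all genes (4.58% higher, 2.37% lower). Of 25 epithelial markers, the adhesion gene Cdh1 was called (2.64 ± 0.44), which alternatively activated macrophages can also express, and it was no longer called without F4/80-high TAM replicate 2 or either monocyte array (adjusted p of up to 0.108). Krt8 had 10.13 and 12.42 in F4/80-high TAM, against 8.58 and 7.32 in spleen monocytes (3.32 ± 1.02). In the colon arrays, which share the fit, the epithelial list was brighter still. No marker of T cells (15), B and plasma cells (15), NK cells (12) or smooth muscle (14) passed in limma, and the means of these lists lay between 5.83 and 7.46 in the 4 arrays. In F4/80-high TAM the T cell list mean was 6.58 and 7.28, against 6.66 and 6.59 in spleen monocytes. The NK cell list mean was 5.94 and 6.52, against 5.86 and 5.83, and that of B and plasma cells 6.52 and 7.27, against 7.46 and 6.92. Without F4/80-high TAM replicate 1, calls higher appeared in the T and NK cell lists. With the second arrays of both tumour groups left out, some B and plasma cell markers were lower. Of 14 mast cell, basophil and eosinophil markers 0 passed, and of 14 endothelial markers Eng was higher (1.39 ± 0.26), a call lost without any single one of the 4 arrays compared (adjusted p of up to 0.134), while 3 were higher without either Ly6C-high TAM array. Of 16 neutrophil markers Trem1 and Il1r2 were higher (12.5%) and Mmp8 and Csf3r lower (12.5%). The lower calls were lost without any single one of the 4 arrays compared. Of 16 dendritic cell markers Bst2 was higher (6.25%). The probe set used for Cd209a did not pass (-0.49 ± 0.17), while a second one gave -4.15. Flt3, Dpp4 and Kmo (-1.48 ± 0.32) were lower (18.8%). Kmo lost its call without any single array other than those of Ly6C-high TAM (adjusted p of up to 0.189), and 1 of the 3 was lower without either monocyte array. Cd79b of the B cell list read 10.05 and 9.69 in F4/80-high TAM, against 10.30 and 9.82 in spleen monocytes. The part of these cells in the results was not tested.

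Probe sets at microRNA loci, a class singled out after its values were seen, held calls in 1 direction. MicroRNAs are short RNAs that pair with target transcripts through a seed at bases 2 to 8. The arrays read the precursor or primary transcript at a locus, not the mature form. Of 327 loci measured, 15 were lower in F4/80-high TAM (4.59%) and 0 higher, with a median of -0.14, against 2.37% lower over all genes. These 15 did not pass between F4/80-high TAM and either Ly6C-high TAM or colon macrophages. Mir142, a locus active in blood cells, had 6.42 and 5.82, against 9.45 and 9.63 in spleen monocytes (-3.42 ± 0.28, adjusted p = 0.000823). It read 6.43 and 5.80 in Ly6C-high TAM and 5.56 and 5.87 in colon macrophages. Mir350 had 4.43 and 4.70, against 7.17 and 7.33 in spleen monocytes (-2.69 ± 0.14), and Mir340 4.17 and 3.81, against 6.21 and 6.42 (-2.33 ± 0.19). These calls were kept with any array left out, although Mir340 was dim in both groups and Mir350 in F4/80-high TAM. Mir15a had 8.60 and 7.48, against 9.93 and 11.02 in spleen monocytes (-2.43 ± 0.58), and its neighbour on chromosome 14, Mir16-1, had 5.69 and 5.42, against 7.16 and 8.36 (-2.20 ± 0.38). In both, spleen monocyte replicate 2 read above replicate 1. Mir15a lost its call without any single array other than those of Ly6C-high TAM and Mir16-1 without either F4/80-high TAM array (adjusted p of up to 0.251 and 0.0877). All 15 loci matched RefSeq, and selected mature arms of those named are given with the seed in capitals.
mmu-miR-142a-5p: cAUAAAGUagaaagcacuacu
mmu-miR-142a-3p: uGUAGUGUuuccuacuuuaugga
mmu-miR-350-3p: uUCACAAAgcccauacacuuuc
mmu-miR-340-5p: uUAUAAAGcaaugagacugauu
mmu-miR-15a-5p: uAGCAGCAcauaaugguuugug
mmu-miR-16-5p: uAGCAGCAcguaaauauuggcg
The last 2 share the seed AGCAGCA, while the others each have a seed of their own.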

How the data were processed

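Gene expression was measured on 8 Affymetrix arrays. The deposited values are RMA-normalised log2 signals per probe set, made with Partek 6.6 per the submitters' processing notes, and the genome build is not given in the sources used here. Of 35556 probe sets, 24692 carried a symbol in the authors' deposited table, of which 21023 matched a RefSeq accession and 1926 symbols were updated. A further 8 value columns there, whose headings match no sample, were not used. For the 1901 genes with several probe sets the one with the highest mean over all arrays was kept, which left 21442 genes. One mean per population was fitted over all 8 arrays with limma 3.58.1 in R 4.3.3 (4 residual and 2.64 prior degrees of freedom), with Benjamini-Hochberg adjustment. The fit was tested on simulated data. Precision is limited by 2 arrays per group.

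Members and the 40 gene lists (1033 of 1051 entries measured) were chosen with earlier results of these data known. Lists overlap. Named were the 10 largest changes in each direction (skipping predicted transcripts, receptor and immunoglobulin segments and probe sets naming several genes), up to 6 called members per list, all sort markers, the 3 brightest markers of each other cell type, collagens I, III, VI and XIV, and Xist. Other list members, and the microRNA loci, were named after their values were seen. Some genes that the rule names are not reported here. The replicate deviations of F4/80-high TAM and spleen monocytes had a correlation of -0.155, so the replicate number was not taken as pairing in this comparison. Between the tumour populations the same correlation was 0.770. Contrasts between those populations were nevertheless fitted without pairing, and the shared spread counts their deviations as independent. Alternatives were other scalings, filters, fits and left-out arrays. Leaving out a Ly6C-high TAM or colon macrophage array leaves the differences unchanged. It alters only the shared spread, alike for either array of the population.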

Additional observations from a re-analysis of the deposited data

How the results depend on the processing

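Over the alternatives the counts of genes higher and lower in F4/80-high TAM, 981 and 509 as reported, kept within 1.5 times of these values with the 4 arrays of the comparison alone (1175 and 572), quantile normalization (786 and 595), a filter on low values (1039 and 521), an intensity trend (1022 and 532), every named probe set (1025 and 558) and with the second arrays of both tumour groups left out (1206 and 531). Without moderation of the spread they were 407 and 224, and with the adjusted p alone 1516 and 982. Median centring gave 790 and 863. The cause of these moves was not tested, except that dropping the fold limit adds genes by construction. Leaving out single arrays gave 394 to 1269 higher and 207 to 617 lower. Of the genes reported as higher and lower, 39.7% and 39.3% were called without spleen monocytes replicate 2, and 80.9% and 79.8% without either colon array. With the replicate block the counts were 1171 and 551 over 8 arrays and 1311 and 628 over 4, but the number is shared without a stated pairing. The crossed pairing, added after seeing the data because replicate deviations correlated at -0.155, gave 1295 and 615. Of 141 named genes called, 90 kept their call under every alternative tracked per gene and 51 lost it in at least 1. Among genes that did not pass, Cd68 turned to -0.18 with median centring and -0.016 with quantile normalization, Itgam to -0.12 with median centring, and Cx3cr1 to -0.064 without F4/80-high TAM replicate 1 and -0.036 without spleen monocytes replicate 1, within a range of -0.064 to 0.74 over single arrays left out. Chil3 (adjusted p = 0.0956) and others with unequal replicates are limited by 2 arrays per group.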

Other observations

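Genes outside the lists were picked after their values were seen, and they are given as values. Prostaglandin genes changed at several steps. Hpgds, which makes prostaglandin D2, had 11.37 and 10.51 in F4/80-high TAM, against 6.82 and 5.71 in spleen monocytes (4.67 ± 0.43, limma adjusted p = 0.00131). Ptgs1, the constitutive cyclooxygenase, had 11.55 and 11.25, against 8.20 and 7.86 in spleen monocytes (3.37 ± 0.31). The prostacyclin receptor Ptgir had 6.65 and 6.68, against 9.78 and 9.86 in spleen monocytes (-3.15 ± 0.12). With Hpgd, described above, a synthase was thus higher and a degrading enzyme and a receptor lower. The prostaglandin E synthase Ptges did not pass (1.61 ± 0.73). Genes for extracellular adenosine rose: Nt5e, which encodes CD73, had 10.79 and 11.41 in F4/80-high TAM, against 6.40 and 6.11 in spleen monocytes (4.84 ± 0.41), and Entpd1, which encodes CD39, had 12.15 and 12.13, against 10.49 and 10.73 (1.53 ± 0.13). The nucleotide receptor P2ry14 was higher (3.09 ± 0.30) and P2ry1 lower (-2.48 ± 0.30).

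The metal-binding metallothionein Mt2 had 12.77 and 12.84 in F4/80-high TAM, against 8.05 and 7.13 in spleen monocytes (5.22 ± 0.31), and Mt1 was higher by 2.57 ± 0.26. Of the D cyclins, which carry growth signals into the cell cycle, Ccnd1 had 12.23 and 12.38, against 8.05 and 7.61 in spleen monocytes (4.48 ± 0.21), and Ccnd2 had 12.02 and 12.04, against 8.24 and 7.64 (4.09 ± 0.23). Ccnd3 was lower (-1.27 ± 0.28) but lost its call without any single array of F4/80-high TAM, spleen monocytes or colon macrophages (limma adjusted p of up to 0.183). Ccnd1 and Ccnd2 were called in every fit that left out an array (limma adjusted p of up to 0.0026 and 0.00305). The B cell and macrophage co-receptor Cd72 had 12.91 and 12.63 in F4/80-high TAM, against 8.21 and 6.79 in spleen monocytes (5.27 ± 0.46).

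Some genes differed more between replicates than between populations. Ighm, an immunoglobulin chain, had 4.44 and 9.57 in F4/80-high TAM, against 6.86 and 4.65 in spleen monocytes, and the mucus gene Agr2 had 6.39 and 9.70, against 7.41 and 5.81. Of these 4 arrays both read highest in F4/80-high TAM replicate 2. Cbr2, a carbonyl reductase, had 11.68 and 8.37, against 8.34 and 8.10 in spleen monocytes, and of these arrays read highest in F4/80-high TAM replicate 1.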
